A study of Mus musculus with 9 samples.

Results

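miR-191-5p (MIMAT0000221) and miR-425-5p (MIMAT0004750) are the 5′ arms of neighbouring miRNA hairpins, and both were counted in all 9 serum libraries of this series. They are 2 of the 876 mature miRNAs with at least 1 count in any library. They were chosen by their miRBase identifiers as a genomic cluster, together with the counts, the shares of miRNA counts and the ratio that are given here across control, beads and RNase H, so these values are a description of the members and carry no test.

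All 9 libraries were made from serum of healthy mice of the 129/SVj strain. The methods name male and female mice, without the sex of those in a pool. Ages ran from 2 to 9 months, and blood was drawn from the heart under tribromoethanol. RNA was isolated from 200 μl of pooled serum, and the labels name 3 pools (A, B and C), each split into an undepleted control, a fraction depleted with beads and a fraction depleted with RNase H. In both depletions DNA probes were hybridised to the most abundant 5′ tRNA fragments (glutamine, glycine, valine and histidine). The beads protocol removed the bound fragments on streptavidin beads, whereas RNase H cleaved them and was followed by DNase I. The methods describe aliquots of a pool made from 3 mice, so the spread between the 3 libraries of a group may be technical. Serum holds RNA released by many tissues, and in such bulk RNA fewer releasing cells and less RNA released per cell cannot be told apart. Neither can differ between the 3 fractions of a pool, which were split from the same RNA.

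MiRNAs are cut from hairpin precursors, and the retained strand guides a silencing complex to messenger RNAs that pair with its seed, bases 2 to 8 from the 5′ end. miR-191 and miR-425 are made from a common primary transcript and are expressed in many cell types, blood cells among them. Both are widely used as reference miRNAs when levels in serum or plasma are compared.

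The mature sequences are shown to make clear that reads of these co-transcribed RNAs cannot be mistaken for each other (RefSeq, GRCm38.p6, plus strand, seed in capitals).

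miR-191-5p: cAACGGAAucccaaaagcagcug

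miR-425-5p: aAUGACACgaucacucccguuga

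miR-191-3p: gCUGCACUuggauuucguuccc

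miR-425-3p: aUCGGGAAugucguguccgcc

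The members are both 23 bases long, match at 5 positions when laid side by side without gaps, and share no run longer than 4 bases. Each of the 4 sequences is present in 1 of the 1005 hairpins of the RefSeq table, so their reads need not be divided between loci. No other mature miRNA among the 1738 in that table has the seed of miR-191-5p, and miR-425-5p shares its seed with miR-489-3p alone. The GC content was 52.2% for miR-191-5p and 47.8% for miR-425-5p.

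miR-191-5p lies at chr9:108568325-108568347 and miR-425-5p at chr9:108568789-108568811. Their hairpins are Mir191 (chr9:108568319-108568392) and Mir425 (chr9:108568777-108568861), which are shown with the 5′ arm in capitals because the position of the arms bears on the arm counts given later.

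Mir191: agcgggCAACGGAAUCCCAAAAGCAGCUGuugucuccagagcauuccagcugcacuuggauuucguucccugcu

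Mir425: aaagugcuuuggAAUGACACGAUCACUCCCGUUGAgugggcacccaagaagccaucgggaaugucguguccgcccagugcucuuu

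The hairpins are 384 bases apart. RefSeq places both inside the protein-coding gene Dalrd3 (chr9:108567484-108572773). GENCODE M21 places both inside an exon of a transcript of the long non-coding RNA 4833445I07Rik (chr9:108567533-108569174), and Mir191 also inside an intron of a shorter transcript of that gene. GENCODE further lists Gm24083, a miRNA gene model on the minus strand that covers Mir191 (chr9:108568295-108568414). Whether the counting used the strand is not given in the sources used here.

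Control libraries held between 205185 and 330676 miRNA counts, beads-depleted libraries between 1822088 and 1995956, and RNase H-depleted libraries between 1199 and 2040. A count of 3 therefore corresponded to at most 0.00146% of the miRNA counts in control and beads-depleted libraries, whereas after RNase H it corresponded to 0.147% to 0.25%. Of 6 markers of possible RNA sources, 4 had counts in the tables used here. No entry was listed for miR-486a-5p and miR-126a-3p, which does not show that they were absent from the serum. miR-451a, the red blood cell miRNA, made up 6.97% ± 0.0176 (SD, n = 3) of miRNA counts in control libraries, 9.22% ± 0.496 after beads and 6.49% ± 1.42 after RNase H. The other markers did not all move with it. miR-144-3p, also of red blood cells, had 0.113% ± 0.0106, 0.17% ± 0.0051 and 0.206% ± 0.0852 in these groups. miR-223-3p, of myeloid cells and platelets, had 0.0435% ± 0.006, 0.0357% ± 0.00211 and 0.0615% ± 0.054. After RNase H these rested on 11 and 3 counts. The sum of the 4 markers, most of it miR-451a, ranged from 7.11% to 7.17%, from 9.05% to 9.98% and from 5% to 7.84%. miR-122-5p, the liver miRNA, had 6, 5 and 0 counts in all. These marker shifts are between fractions split from the same RNA, and their part in the values of the members was not tested.

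miR-191-5p was among the most abundant miRNAs in serum. It had 11492, 17251 and 12812 counts in control pools A, B and C, and 101104, 94380 and 95642 counts in the beads-depleted libraries of these pools. Before scaling to depth, every beads-depleted library thus held more reads of miR-191-5p than every control library, and the mean count was 7.01 times that of the control. Within pools the factor was 8.80 in pool A, 5.47 in pool B and 7.47 in pool C. RNase H-depleted libraries retained 66, 84 and 37 counts, 0.0045 times the control mean.

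miR-425-5p was counted 553, 871 and 652 times in control pools A, B and C, and 4880, 5058 and 4636 times after depletion with beads. The mean count rose 7.02 times, with 8.82, 5.81 and 7.11 times within pools A, B and C. These factors followed those of miR-191-5p in each pool, but both are unscaled and carry the depth of the libraries. The miRNA sums of pools A, B and C were 205185, 330676 and 248696 in control and 1926545, 1995956 and 1822088 after beads. In RNase H-depleted libraries 1, 6 and 2 reads of miR-425-5p were left.

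**Figure D1:**
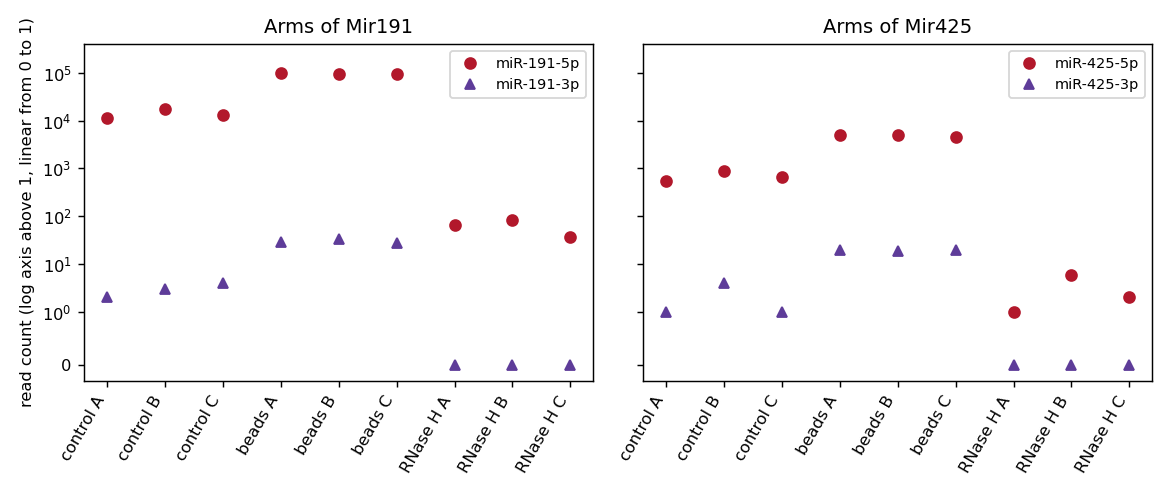
Read counts of both arms of Mir191 (left) and Mir425 (right) in each of the 9 libraries, on an axis that is logarithmic above 1 and linear from 0 to 1. The 5′ arms (circles) lie far above the 3′ arms (triangles), and no read of a 3′ arm was counted in an RNase H-depleted library.

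Scaled to the miRNA sum of its library, miR-191-5p made up 5.60%, 5.22% and 5.15% of control pools A, B and C. The Wilson 95% confidence intervals of these shares, which cover counting error only, were 5.50% to 5.70%, 5.14% to 5.29% and 5.07% to 5.24%. Beads-depleted libraries had shares of 5.25%, 4.73% and 5.25%. The groups overlapped, since pools A and C after beads lay within the control range, whereas beads-depleted pool B lay below it (4.70% to 4.76%). The means were 5.32% ± 0.243 and 5.08% ± 0.300 (SD, n = 3), and their difference was of the size of these SDs.

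For miR-425-5p the shares in control pools A, B and C were 0.270%, 0.263% and 0.262%, and those in beads-depleted libraries 0.253%, 0.253% and 0.254%. Each share after beads was lower than each control share, but the gap was within the counting error of the control libraries, whose Wilson intervals reached down to 0.248%, 0.246% and 0.243%. How many other miRNAs separated between these groups was not counted, so it is not known whether the separation is particular to miR-425-5p. The means were 0.265% ± 0.00393 and 0.254% ± 0.000623 (SD, n = 3). Of all annotated counts, tRNA and other small RNAs included, miR-425-5p made up 0.0159% ± 0.00232 in control and 0.153% ± 0.0256 in beads-depleted libraries. miR-191-5p had 0.318% ± 0.0384 and 3.03% ± 0.336 on that scale. Between them the members held from 4.98% to 5.87% of the miRNA counts in these 6 libraries.

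After depletion with RNase H, the share of miR-191-5p was 3.24% in pool A, 4.25% in pool B and 3.09% in pool C. These 3 shares lay below all control and all beads-depleted shares, with a mean of 3.52% ± 0.633 (SD, n = 3), 0.662 times that of the control. The Wilson intervals of pools A and C (2.55% to 4.10% and 2.25% to 4.22%) did not reach the control shares, and that of pool B did (3.44% to 5.23%). At the mean control share, the RNase H-depleted libraries would have held 278 reads of miR-191-5p in all, and 187 were counted. The miRNAs just above and below it by control share also fell below their control ranges after RNase H. MIMAT0000652 went from 5.03% to 5.66% in control to 3.82% to 4%, and MIMAT0000208 from 4.83% to 5.16% to 3.09% to 4.5%. How many of all miRNAs separated from control in this way was not counted.

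miR-425-5p had shares of 0.049%, 0.303% and 0.167% in RNase H-depleted pools A, B and C. Pool B lay above and pools A and C below the control libraries. The Wilson intervals, from 0.00865% to 0.277%, from 0.139% to 0.661% and from 0.0458% to 0.606%, each contained the mean control share. At that share 13.8 reads would have been counted in the 3 libraries together, against 9 observed. These counts are too low to give the size of a change in miR-425-5p.

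**Figure D2:**
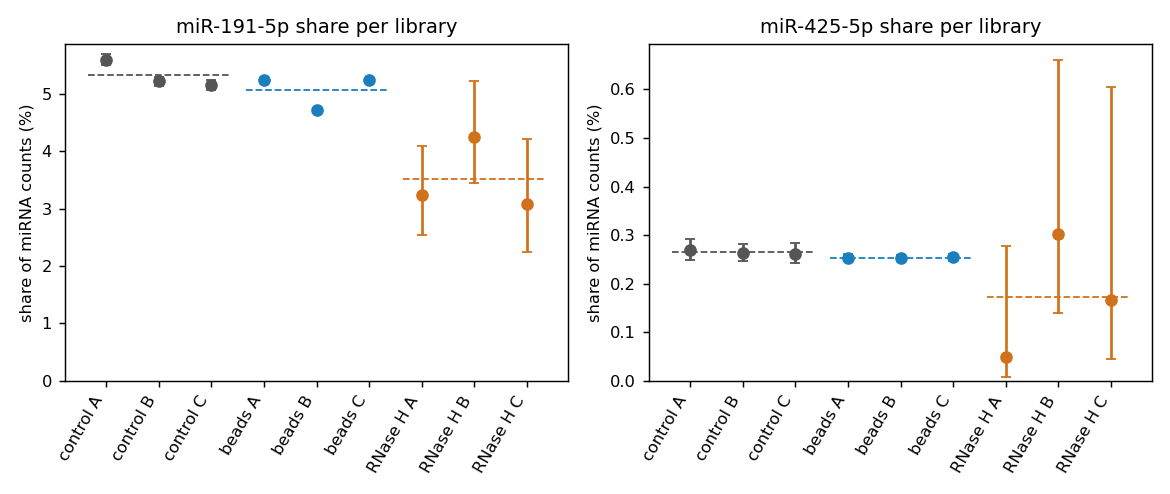
Share of miRNA counts (%) of miR-191-5p (left) and miR-425-5p (right) in each library, with Wilson 95% confidence intervals as bars and group means as dashed lines. miR-191-5p ran from 4.73% to 5.60% in control and beads-depleted libraries and from 3.09% to 4.25% after RNase H, and the bars of miR-425-5p widened to as much as 0.139% to 0.661% at the depth of the RNase H-depleted libraries.

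The ratio between the members, which was among the values that chose them, is given as a description. In control pools A, B and C, 20.8, 19.8 and 19.7 reads of miR-191-5p were counted for each read of miR-425-5p. The beads-depleted libraries gave 20.7, 18.7 and 20.6. The mean ratio was 20.1 ± 0.613 in control and 20 ± 1.16 in beads-depleted libraries (SD, n = 3). Beads-depleted pool B had the lowest of the 6 ratios, with an exact binomial 95% confidence interval of 18.1 to 19.2 against 20.1 to 21.3 in pool A and 20 to 21.3 in pool C. In that library the share of miR-191-5p was lower and the share of miR-425-5p was like that of the other beads-depleted libraries.

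In RNase H-depleted pools A, B and C the ratios were 66, 14 and 18.5. With 1, 6 and 2 reads of miR-425-5p behind them, their exact intervals were 11.4 to 2646, 6.17 to 39.2 and 4.77 to 158, and all 3 intervals contained the mean control ratio. The reads of the 3 libraries together gave a ratio of 20.8 (10.7 to 46.2), against 20 in both control (19.2 to 20.9) and beads-depleted libraries (19.6 to 20.3). The mean of the 3 ratios was 32.8 ± 28.8 (SD, n = 3) and rested on pool A: the log2 ratio to control was 0.71 with all pools and -0.28 without pool A.

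**Figure D3:**
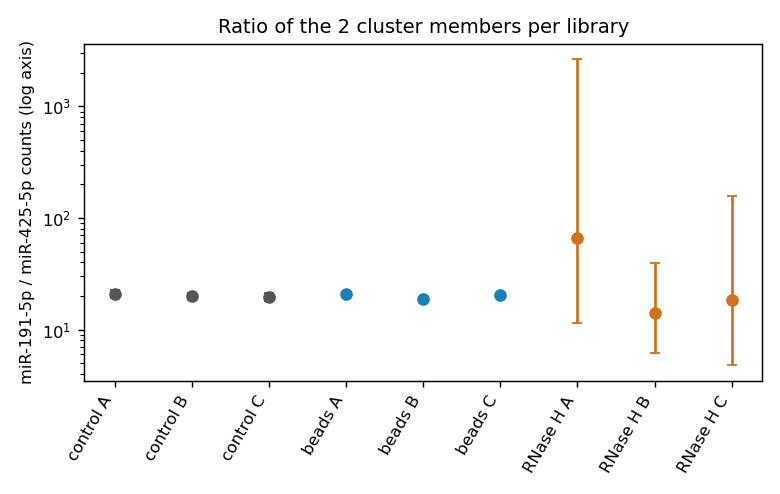
Counts of miR-191-5p divided by counts of miR-425-5p in each library, on a log axis, with exact binomial 95% confidence intervals as bars. The 6 control and beads-depleted libraries lie between 18.7 and 20.8, and the RNase H-depleted libraries have wide intervals that span these values.

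Against all other miRNAs, both members were near the middle of the changes after beads. The edgeR log2 fold change, computed with TMM scaling over the 307 miRNAs that passed the filter on low counts, was -0.06 ± 0.056 (SE) for miR-191-5p and -0.06 ± 0.0825 (SE) for miR-425-5p. The median over all 307 miRNAs was 0.043, and their quartiles were -0.22 and 0.40. A smaller absolute log2 fold change was found for 36 miRNAs than for miR-191-5p and for 32 than for miR-425-5p. The sign depends on the scale, since with all annotated counts as library size the log2 fold changes were 3.25 and 3.26, beside a median of 3.37 over all miRNAs.

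For RNase H, the edgeR log2 fold changes were -0.69 ± 0.174 (SE) for miR-191-5p and -0.73 ± 0.434 (SE) for miR-425-5p. The median of the 138 miRNAs in that fit was -0.19, with quartiles of -0.69 and 0.51, so the members were 0.50 and 0.54 below the median on the log2 scale. A lower fold change was found for 34 and 32 of the 138 miRNAs. In miR-425-5p the value was set by single pools. The log2 ratio of the mean shares was -0.61 with all pools, -0.16 without pool A and -1.30 without pool B, and the mean of the ratios within pools (replicate block) was -0.97. For miR-191-5p it was -0.60, and between -0.77 and -0.50 with a pool left out.

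**Figure D4:**
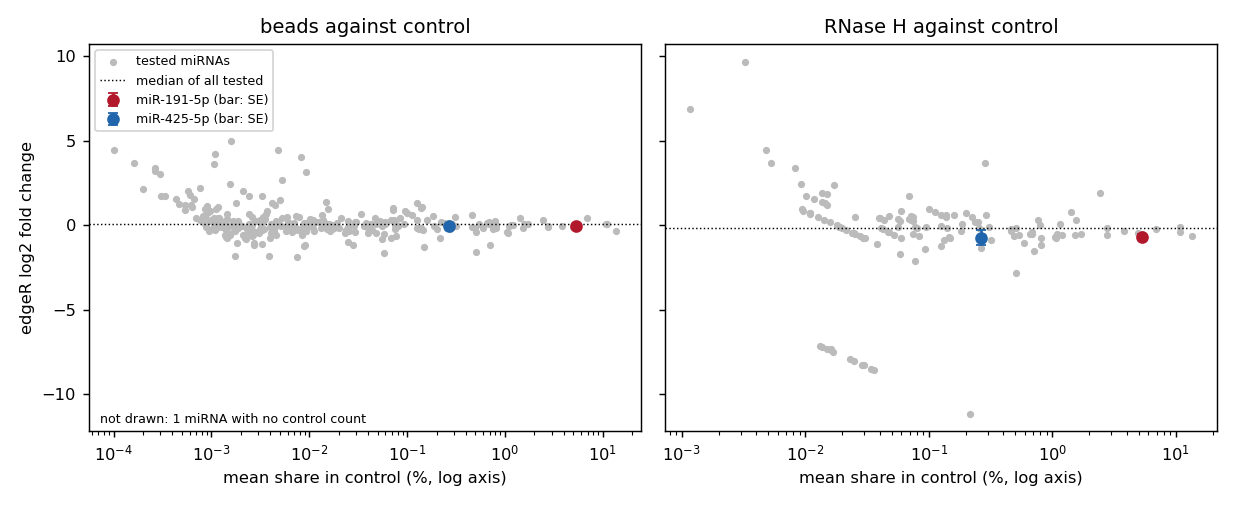
edgeR log2 fold change against mean control share (log axis) of each tested miRNA for beads (left) and RNase H (right), with the members in red and blue, bars for their SE and a dotted line at the median of all tested miRNAs. After beads both members lie at -0.06, next to the median of 0.043; after RNase H they lie at -0.69 and -0.73, below the median of -0.19.

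By mean share miR-191-5p was the 6th most abundant of 572 miRNAs in control libraries, the 6th of 837 after beads and the 9th of 154 after RNase H. Its neighbours in the control order were MIMAT0000652 at 5.36% ± 0.319 and MIMAT0000208 at 4.99% ± 0.165 (SD, n = 3), and in none of the 3 groups did the range of either stand apart from that of miR-191-5p. miR-425-5p ranked 43rd, 47th and 55th. Its neighbours MIMAT0000739 (0.266% ± 0.0131) and MIMAT0000674 (0.257% ± 0.0126) overlapped it in control and RNase H-depleted libraries. In beads-depleted libraries MIMAT0000739 lay above it, at 0.266% to 0.320%, and MIMAT0000674 below it, at 0.214% to 0.247%. Shares were ranked as counted, without scaling to length.

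The share of miR-425-5p was the least variable of the 147 miRNAs with a mean of at least 100 counts over the 6 control and beads-depleted libraries. The SD of its log2 share was 0.038, against 0.079 for miR-191-5p, which ranked 18th, and a median of 0.205. The place of miR-425-5p was the 1st also with TMM scaling, the 3rd or the 4th with a pool left out, and the 10th with DESeq2 size factors, where its SD was 0.063. Over all 9 libraries, with the shallow RNase H-depleted ones included, its SD was 0.630 and it ranked 74th of 127, whereas miR-191-5p had an SD of 0.312 and ranked 24th.

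Counting noise alone gives a chi-square per degree of freedom near 1. For miR-425-5p, this value over the 6 libraries was 0.711 against a constant share, and 2 of the 147 miRNAs had a smaller value. For miR-191-5p, which had both higher counts and a larger SD of the log2 share, it was 171. The median of the 147 miRNAs was 11.7. The ratio of the members gave 0.523 within control libraries, 16.6 within beads-depleted libraries and 6.83 over all 6.

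**Figure D5:**
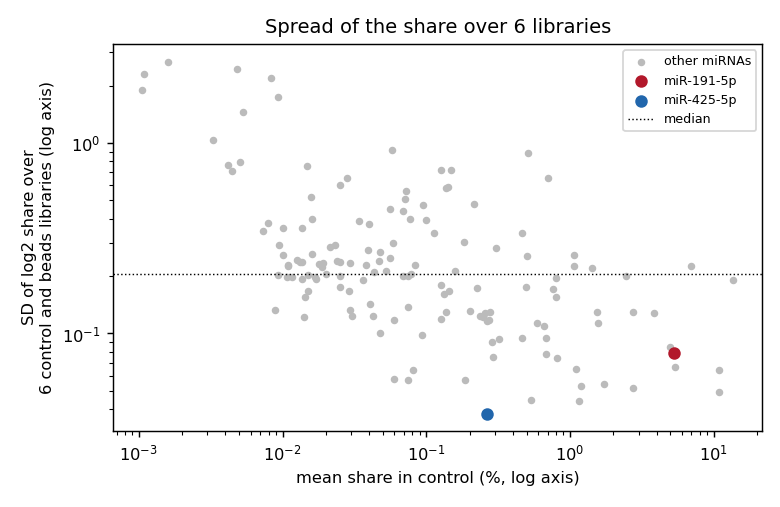
SD of the log2 share over the 6 control and beads-depleted libraries against mean control share (both log axes), 1 point for each of 147 miRNAs, with a dotted line at the median of 0.205. miR-425-5p, at 0.038, is the lowest point, and miR-191-5p, at 0.079, lies in the lower part among the abundant miRNAs.

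The miRNAs whose pattern was most like that of each member were ranked by the root mean square difference of log2 shares, each centred on its own mean, over the same 6 libraries. miR-191-5p was nearest to MIMAT0000215 (0.032), MIMAT0000535 (0.043), miR-425-5p (0.055), MIMAT0000210 (0.056) and MIMAT0000208 (0.057), among 146 miRNAs with a median of 0.203. miR-425-5p was nearest to MIMAT0000535 (0.030), MIMAT0000648 (0.037), MIMAT0000530 (0.040), MIMAT0000517 (0.044) and MIMAT0000208 (0.049), and miR-191-5p followed at rank 6. MIMAT0000535 and MIMAT0000208 were in both lists. Over all 9 libraries miR-425-5p was at rank 41 of 126 among the miRNAs nearest to miR-191-5p, and miR-191-5p at rank 16 of 126 among those nearest to miR-425-5p. These are descriptions over libraries that share pools, depth and the miRNA sum.

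The opposite arms of the hairpins had not been used to choose the members and were tested between beads and control. They passed the filter on low counts through the beads-depleted libraries alone, and the same filter removed them from the RNase H fit. miR-191-3p (MIMAT0004542) had 2, 3 and 4 counts in control pools A, B and C and 29, 34 and 27 counts after beads. miR-425-3p (MIMAT0001342) had 1, 4 and 1 counts in control and 20, 19 and 20 after beads. Both arms were near the floor of 3 counts in the control libraries and well above it in all 3 beads-depleted libraries.

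Relative to all miRNAs neither of the 2 opposite arms passed the threshold between beads and control, where 82 of the 307 tested miRNAs (26.7%) were called. The edgeR log2 fold change was 0.45 ± 0.558 (SE) for miR-191-3p (adjusted p = 0.64, approximate 95% interval -0.64 to 1.54) and 0.43 ± 0.704 (SE) for miR-425-3p (adjusted p = 0.722, -0.95 to 1.81). Adjusted p was between 0.525 and 0.918 for miR-191-3p and between 0.436 and 0.97 for miR-425-3p in the other fits scaled to miRNA counts. The log2 fold change of miR-425-3p depended on single pools, with 1.27 without pool B and 0.10 without pool C. That of miR-191-3p was 0.19 without pool B and 0.78 without pool C. Within pools the share of miR-191-3p was 1.54, 1.88 and 0.921 times the control, and that of miR-425-3p 2.13, 0.787 and 2.73 times. These intervals are wide, and changes of up to about the bounds given could not be seen at this depth.

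No read of either 3′ arm was counted among the 2040, 1977 and 1199 miRNA counts of the RNase H-depleted libraries, which allows shares of up to 0.147%, 0.152% and 0.25%. The control means of 0.00116% for miR-191-3p and 0.0007% for miR-425-3p lay far below these limits. Neither arm entered the RNase H fit, in which 16 of 138 miRNAs (11.6%) were called.

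Depletion with beads gave enough reads to set the arms against each other. In beads-depleted pools A, B and C the 3′ arm made up 0.0287%, 0.0360% and 0.0282% of the reads of Mir191, and 0.408%, 0.374% and 0.430% of the reads of Mir425. In these libraries every interval of Mir425 (the lowest bound was 0.240%) lay above every interval of Mir191 (the highest bound was 0.0503%). With the 3 libraries of a group summed, the 3′ arm of Mir191 held 0.0309% after beads (Wilson 95% confidence interval 0.0251% to 0.0380%) and 0.0217% in control (0.0114% to 0.0412%), and that of Mir425 0.403% (0.313% to 0.520%) and 0.288% (0.132% to 0.627%). The intervals of the groups overlapped for both hairpins. The 5′ arm was thus counted 3235 times as often as the 3′ arm for Mir191 and 247 times as often for Mir425 in the summed beads-depleted libraries.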

How the data were processed

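Small RNA libraries (TruSeq, 15 PCR cycles) of 3 controls, 3 beads-depleted and 3 RNase H-depleted serum fractions were analysed. Per the methods, the authors trimmed adapters (Cutadapt 1.8.1), filtered reads by quality, mapped them without mismatches (Bowtie 1.1.2, GRCm38) and deposited raw counts per mature miRNA, so reads with an untemplated end or a sequencing error are missing from the counts. Counts of other annotated sequences were used for the total only.

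The members and the lists were chosen with earlier results of these data known. Names of the arms, the markers and miR-16-5p were assigned by miRBase accession, as the deposited counts carry no names, and other miRNAs are given by accession. Genes named follow a fixed rule: members, opposite arms, neighbours in the control order, the 5 nearest patterns and markers.

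All miRNAs were tested with edgeR 4.0.16 (TMM, filterByExpr, quasi-likelihood test, Benjamini-Hochberg, threshold 0.05; R 4.3.3), which was tested on simulated counts. SEs were derived from each log2 fold change and its F statistic. DESeq2 1.42.0 was an alternative. Log2 shares used a pseudocount of 0.5. Intervals and floors (3 counts) were computed with SciPy 1.17.1. Pools pair the libraries, since each RNA was split. Deviations from the group mean correlated between control and beads at 0.185, 0.055 and 0.008 in pools A, B and C, and between control and RNase H at -0.060, -0.023 and 0.090. No pair of libraries of the same group agreed within sampling noise (chi-square per degree of freedom of at least 1.37). A planned comparison with other co-located pairs is not analysed here.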

Additional observations from a re-analysis of the deposited data

How the results depend on the processing

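With all annotated counts as library size the scale changes to that of the whole library. The log2 ratio of the mean shares was then 3.25 for miR-191-5p and 3.26 for miR-425-5p after beads (-0.07 and -0.06 relative to miRNA counts) and -1.85 and -1.59 after RNase H. For miR-425-5p after RNase H, edgeR gave -2.20 on that scale (-1.88 for miR-191-5p), and its mean share rested on pool B, with 0.0127% against 0.000623% in pool A and 0.00252% in pool C. On that scale 332 of 332 tested miRNAs were called after beads and 51 of 143 after RNase H. The opposite arms were among the 332, with edgeR log2 fold changes of 3.70 (miR-191-3p) and 3.64 (miR-425-3p), beside a median of 3.37 over all miRNAs. Since every tested miRNA passed, these calls say nothing about the arms in particular. The filter passed more miRNAs with that library size than the 307 and 138 tested relative to miRNA counts. The value of miR-425-5p after beads moved by more than its small spread with DESeq2 size factors (-0.10) and with miR-16-5p left out of the miRNA sum (-0.11). Calls after RNase H numbered 16 in edgeR and 27 in DESeq2, and from 4 (without pool C) to 30 (without pool B) with a pool left out, with 8 without pool A. The ratio of the members after RNase H ranged from -0.28 to 1.06 on the log2 scale with a pool left out. With the replicate block, 91 miRNAs were called after beads and 12 after RNase H, and the block changed no call of the opposite arms. The spread of the log2 shares, for which alternatives were chosen after seeing the data, moved by more than its own value with all 9 libraries only. Of 86 alternative values, 69 kept their direction and side of the threshold or moved by less than the spread. The joint fit gave no value for the opposite arms, which its filter removed. Depth limits every statement on RNase H, and the 3′ arms in control libraries rest on 1 to 4 counts.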
